A study of Mus musculus with 2 samples.

Results

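The 6 genes described here, Ifi203, Ifi204, Ifi205, Ifi207, Ifi209 and Ifi211, belong to the mouse interferon-inducible p200 family and were chosen by symbol from the 32285 genes of the deposited feature list. A name search of the same list found 13 family genes in all. The other 7, Ifi202b, Ifi206, Ifi208, Ifi213, Ifi214, Mndal and Aim2, are given beside them for comparison. Genes of this family, also called PYHIN genes, encode proteins that bind DNA through a HIN domain and in most cases carry a pyrin domain, which joins other pyrin-containing proteins. Type I interferon, and in many cells interferon-gamma, raises their transcription through interferon response elements in their promoters. Some of their proteins act as sensors of DNA in the cytosol or nucleus, others regulate transcription, and the best known member of the wider family, Aim2, starts an inflammasome.

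The cells came from tumors of NMM, an NRAS-mutated mouse melanoma line, grown in Rag-/- mice, which have no T or B cells of their own. Some tumors had received T cells in vivo and others PBS. The labels name Mix PBS, the control, with 6 of the 18 tumors, Mix + T with 6 and Ag-GAS + T with 6, so there were 3 conditions. Tumor cells carrying the fluorescent protein CFP, which the labels call bystander cells, were sorted after cells of all 18 tumors had been stained with hashtag antibodies and pooled. The pool gave 1 gene expression library by the 10x Genomics 3' assay and 1 hashtag library, and neither the labels nor the files tie a hashtag to a condition. No comparison between conditions, no test and no p-value was therefore possible for any member, and every value below describes 1 library.

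Of 20917 deposited barcodes, 1657 had at least 5000 gene UMIs (unique molecular identifiers, so that a UMI counts a captured transcript) and at most 15% of them from mitochondrial genes. Of these, 198 were left out because they carried 3 or more hashtags. The 1459 cells analysed held 68227759 gene UMIs, with a median of 44559 per cell and a lowest value of 5049. The 10 hashtags occurred in combinations of 2, and 1414 cells fell into 18 such pairs out of 45 possible, with 20 to 223 cells per pair and a median of 77.5. Each pair is taken here for the cells of 1 tumor, an inference from there being 18 pairs and 18 tumors that no label states. The other 45 cells were in no pair. Markers of melanocytes were low, at 85.2 CPM (UMIs of a gene scaled to 1000000 gene UMIs) for 10 genes summed, with Tyr, Tyrp1 and Slc45a2 at 0 UMIs. The fibroblast list, which contains collagen genes, stood at 887 CPM, the endothelial list at 46.5 CPM, the macrophage list at 9.86 CPM and the T cell list at 0.322 CPM.

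The members lay in a cluster on chromosome 1 (GRCm38, GENCODE M21), between position 173630917, the start of Ifi209, and position 174031810, the end of Ifi205. This stretch of 400.9 kb also held Ifi202b, Ifi208 and Mndal. Ifi209 was annotated on the plus strand and the other 5 members on the minus strand. Promoters were read from RefSeq (build GRCm38.p6) for 5 of the 6 members. Ifi204 was not matched. The 250 bases before each start were searched on both strands for GAAANNGAAA, the core of the interferon-stimulated response element. This core was found in 4 members and in 5 of the 7 other family genes, against 3.46% of the 27025 genes in the table. Ifi203 had promoters for more than 1 start, and only the one described here held a match. A match describes letters and does not show that a factor binds there. The 4 members with the core had levels from 26.5 to 379 CPM in the cells below, and Ifi214, which also carries it, had 0.821 CPM. The 60 bases around each member's match are shown 5′ to 3′ on the strand that carries the motif, with the core in capitals. None of these windows overlaps an annotated exon. The match lay 35 bases before the start for Ifi203 (chr1:173942493-173942552, minus strand), 134 for Ifi205 (chr1:174031855-174031914, minus), 41 for Ifi207 (chr1:173741816-173741875, minus) and 37 for Ifi211 (chr1:173913049-173913108, minus).
Ifi203: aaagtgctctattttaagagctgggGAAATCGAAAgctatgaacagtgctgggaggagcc
Ifi211: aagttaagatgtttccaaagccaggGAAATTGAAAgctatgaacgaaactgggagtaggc
Ifi207: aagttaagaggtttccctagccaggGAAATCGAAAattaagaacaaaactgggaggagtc
Ifi205: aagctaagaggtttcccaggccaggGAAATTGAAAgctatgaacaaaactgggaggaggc
The Ifi209 promoter had no full match. Its nearest stretch on the gene's own strand, 79 bases before the start (chr1:173630755-173630814, plus strand), differed from the core by the substitution G1T. Positions are counted from 1 at the 5′ end of the core. On the gene's own strand, a match with 1 mismatch or fewer was present in 17.4% of the 32851 promoters in the table. The opposite strand was not searched for such near matches.
Ifi209: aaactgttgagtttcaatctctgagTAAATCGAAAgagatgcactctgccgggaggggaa

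All 6 members were transcribed in these cells, and together they made up 1011 CPM (95% Poisson interval 1003 to 1018). Because the 3' assay captures transcripts by their ends, a CPM value stands for transcripts and is not set by gene length. Intervals cover counting error only. Ifi203 was the highest at 379 CPM (374 to 383) and had a UMI in 98.4% of cells. Ifi204, a DNA sensor that acts through the adaptor STING, followed at 322 CPM (318 to 326) with a UMI in 98.1% of cells. Ifi211 reached 196 CPM (192 to 199) and 95.3% of cells. The other 3 members were lower. Ifi207 stood at 60.3 CPM (58.5 to 62.2) with a UMI in 56.4% of cells. Ifi209 had 27.7 CPM (26.4 to 28.9) and was read in 30.98% of cells. Ifi205, whose protein regulates transcription of the inflammasome adaptor gene Pycard, had 26.5 CPM (25.2 to 27.7) and was read in 42.0% of cells. The intervals of neighbours in this order were apart except for Ifi209 and Ifi205, which overlapped. These 2 nevertheless differed in how they were spread over cells, since Ifi205 at the lower level was read in more cells.

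Shares of cells with a UMI depend on depth, so each cell was also thinned to 20000 UMIs, which kept 1327 cells and left out 132 shallower ones. At that depth Ifi203 and Ifi204 were each read in 95.1% of cells and Ifi211 in 91.2%. Ifi207 was read in 46.3%, Ifi205 in 29.0% and Ifi209 in 21.8%. Barcodes with few UMIs, taken here for free RNA in the droplets, also contained the family. Whether they held free RNA or remains of cells was not tested. In 18473 barcodes with under 800 UMIs the members summed to 1114 CPM (1094 to 1134), and each of the 6 had a level at or above its level in cells, such as 409 CPM for Ifi203 and 39.1 CPM for Ifi209. No cell type that should lack these genes was available to measure how many UMIs free RNA adds to a full cell. The share of low counts that came from outside the cell was therefore not tested.

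Among the other family genes Mndal, the myeloid nuclear differentiation antigen like gene, reached 262 CPM (258 to 266), between Ifi204 and Ifi211. Ifi206 followed at 86.5 CPM, Ifi208 at 34.9 CPM and Ifi213 at 34.3 CPM. Ifi214 was at 0.821 CPM, and Aim2 at 0.513 CPM (0.357 to 0.713) with a UMI in 1.64% of cells. Ifi202b, which encodes a protein without a pyrin domain that antagonizes Aim2, was at 0 UMIs in all 1459 cells. By the limit of 3 counts this allows a share of cells with a UMI of up to 0.206%, and says nothing of transcripts that were not captured. The same cluster thus held genes read in nearly every cell and a gene read in none.

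**Figure D1:**
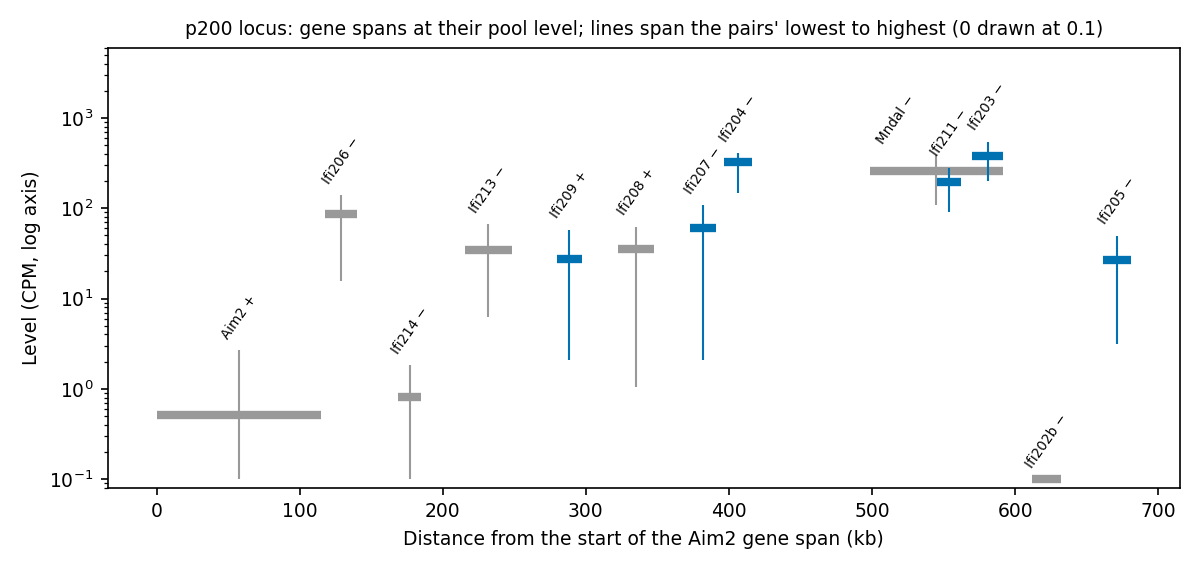
Gene spans of the p200 cluster along chromosome 1, in kb from the start of the Aim2 span (horizontal axis), drawn at their level in the 1459 cells (vertical log axis, CPM). Blue bars are the 6 members and grey bars the other family genes, vertical lines run from the lowest to the highest of the 18 hashtag pairs, strand is given after each name, and values of 0 are drawn at 0.1. Ifi203 and Ifi204 stand highest, Ifi205 and Ifi209 more than 10-fold lower, and Ifi202b at 0 UMIs.

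How reads were divided among the members is uncertain for some of them. The annotated span of Mndal covers all of Ifi211 and 22085 bp of Ifi203 on the same strand. In the last 500 transcript bases of each member, 59.4% of the 90-base stretches of Ifi211 also occurred in Ifi205 or Mndal transcripts, 29.7% of those of Ifi205 in Ifi211 or Mndal, and 37.1% of those of Ifi209 in Ifi214. For Ifi203 the share was 1.05%, and for Ifi204 and Ifi207 it was 0. A read from a shared stretch cannot be given to 1 gene, so the levels of Ifi211, Ifi205 and Ifi209 depend on how such reads were counted. Where along each transcript the counted reads fell was not analysed here.

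Across the 18 hashtag pairs the family sum ranged from 479 CPM (436 to 525) to 1419 CPM (1389 to 1449), with a median of 802, a ratio of 2.96. The lowest value was in the pair HTO1 + HTO3, which had 20 cells, the fewest of any pair, and the highest in HTO7 + HTO10 with 128 cells. The 3 more abundant members moved over a narrower range than the less abundant members described below. Ifi203 ran from 202.7 CPM in HTO2 + HTO5 through a median of 338 to 548 CPM in HTO7 + HTO10. Ifi204 ran from 147 CPM through a median of 289 to 407 CPM, and Ifi211 from 91.6 through 153 to 282 CPM. For both the lowest pair was HTO1 + HTO3 and the highest HTO3 + HTO9. The highest pair was thus at most 3.07 times the lowest for these members.

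The 3 less abundant members differed far more between pairs. Ifi207 ran from 2.08 CPM (0.252 to 7.52) through a median of 26.6 to 109 CPM (100.3 to 117.6). Ifi205 ran from 3.12 CPM (0.644 to 9.13) through a median of 9.98 to 49.8 CPM (44.2 to 55.9), and Ifi209 from 2.08 CPM (0.252 to 7.52) through 11.6 to 57.7 CPM (51.6 to 64.2). Each of the 3 was lowest in HTO1 + HTO3, on 2 UMIs for Ifi207, 3 for Ifi205 and 2 for Ifi209, and highest in HTO3 + HTO9 with 124 cells. The split into 3 abundant and 3 less abundant members was made after their values were seen. The less abundant 3 made up 1.52% of the family's UMIs in HTO1 + HTO3, 15.7% in HTO3 + HTO9 and 5.80% in the median pair. For every 100 UMIs of Ifi203 there were 0.893 to 22.8 UMIs of Ifi207, so the make-up of the family changed between pairs along with its sum.

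Because small pairs give wide intervals, the span of each gene was also taken over the 11 pairs with at least 50 cells. Ifi209 then differed 23.1-fold, from 2.49 to 57.7 CPM, Ifi205 differed 8.32-fold, from 5.99 to 49.8 CPM, and Ifi207 differed 6.38-fold, from 17.0 to 109 CPM. The lowest Ifi209 value still rested on 10 UMIs, in HTO3 + HTO5, and the counting interval of its ratio ran from 12.3 to 43.4. Ifi211 differed 2.47-fold, Ifi203 differed 2.13-fold and Ifi204 differed 1.88-fold. So 3 of the 6 members spanned 3-fold or more, against 5.31% of the 9194 genes of at least 5 CPM, and the members' median span was 4.43 against 1.51 over all these genes. The spans of Ifi211, Ifi203 and Ifi204 lay at percentiles 90.9, 85.4 and 77.0 of these genes. Over all 18 pairs, small ones included, 4 of 6 members and 17.6% of genes spanned 3-fold or more. Among the other family genes Ifi208 spanned 7.35-fold, Ifi213 spanned 5.73-fold, Ifi206 spanned 3.29-fold and Mndal spanned 2.76-fold over the larger pairs.

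**Figure D2:**
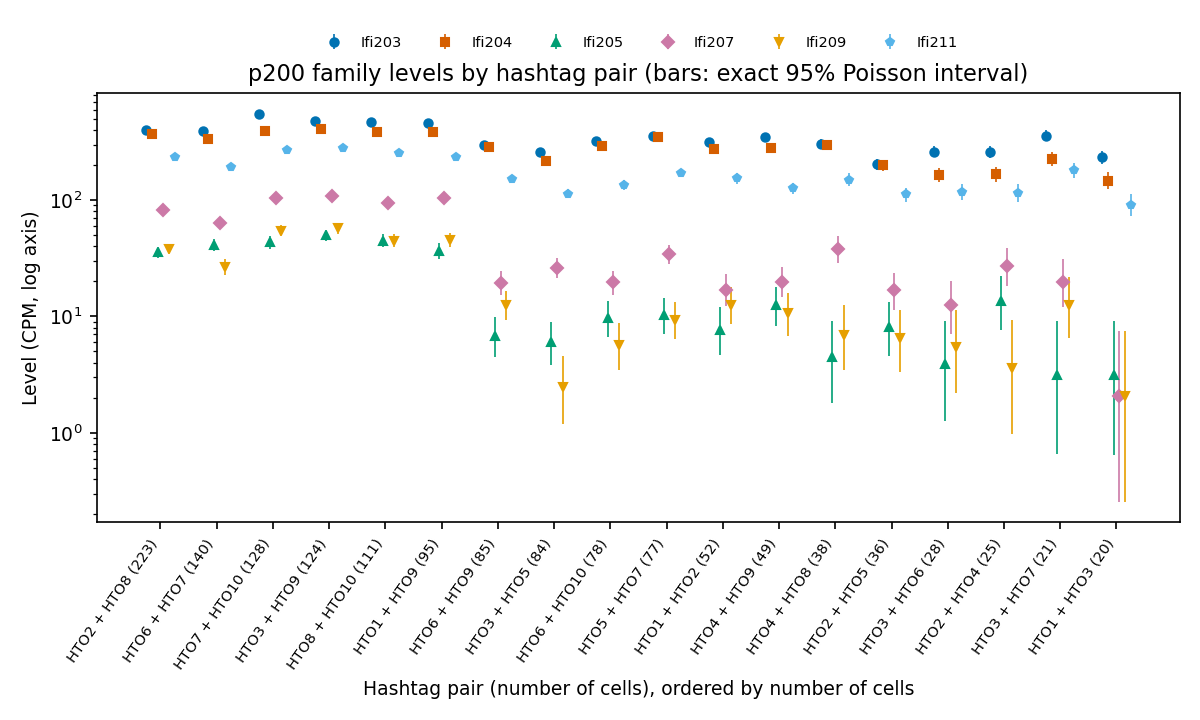
Level of each of the 6 members (vertical log axis, CPM) in each of the 18 hashtag pairs (horizontal axis, ordered by number of cells), with exact 95% Poisson intervals. Ifi203, Ifi204 and Ifi211 keep their order of summed levels in the 18 pairs, with overlapping intervals of Ifi203 and Ifi204 in 6, while Ifi205, Ifi207 and Ifi209 fall to 2 or 3 UMIs in the smallest pair.

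By summed level the abundant members kept their order in the pairs. Ifi203 was above Ifi204, Ifi204 above Ifi211 and Ifi211 above each of the other 3 in 18 of 18 pairs. The intervals of Ifi203 and Ifi204 overlapped in 6 of these pairs, and in thinned cells Ifi203 had the higher mean in 17 of 18, with Ifi204 higher in HTO2 + HTO5. Overlap of intervals is not a test, so whether Ifi203 and Ifi204 differed in those 6 pairs was not tested. Ifi207 was above Ifi209 in 17 pairs and tied with it in the other, and above Ifi205 in 17 pairs. Ifi209 and Ifi205 had no steady order, with Ifi209 higher in 9 pairs and Ifi205 in 8. The median UMI count per pair ran from 35930 to 50955. Other interferon-linked transcripts also differed between pairs. The part of depth or of interferon response in the members' spread was not tested. A list of 22 interferon-gamma response genes summed to between 733 CPM, in HTO1 + HTO3, and 5283 CPM, in HTO3 + HTO9, a ratio of 7.21. A list of 23 type I interferon response genes ran from 4698 CPM in HTO1 + HTO3 to 13322 CPM in HTO7 + HTO10, a ratio of 2.84, close to that of the family sum. Macrophage markers were also uneven, at 65.4 CPM in HTO1 + HTO9, at 60.6 CPM in HTO5 + HTO7 and at a median of 2.08 CPM over the 18 pairs. Without cells that had a UMI of a macrophage or dendritic marker, the family sum in the pool was 1006 CPM and its ratio between pairs 2.63.

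In single cells the members tended to be high together. Pearson's r between members, over log-scaled counts of the 1327 thinned cells, lay between 0.24 and 0.56 for the 15 combinations, with a median of 0.39. These cells share 1 library and 1 depth, and the values describe them with no test. After each pair's mean was subtracted (1286 cells) the r values were lower, and lay between 0.16 and 0.48 with a median of 0.29. The 3 combinations among Ifi203, Ifi204 and Ifi211 then had the highest values. Ifi203 with Ifi204 had r of 0.48 and was positive in 17 of the 17 pairs with at least 20 thinned cells. Ifi204 with Ifi211 had 0.47 and Ifi203 with Ifi211 had 0.44, both also positive in 17 of 17 pairs. Ifi203, Ifi204 and Ifi211 also had the most UMIs, at means of 7.88, 6.45 and 3.93 per thinned cell, against 0.50 to 1.32 for the other members. The median r of 0.29 was 0.20 with cells thinned to 10000 UMIs and 0.32 with 30000. The part of count size in the order of these r values was not tested. Ifi209 gave the weakest values, such as 0.16 with Ifi203, positive in 15 of 17 pairs, and at its sparse counts such a value is no finding. Mndal, whose span overlaps that of Ifi203, had r of 0.58 with Ifi203. Ifi205 with Ifi211 had 0.30, positive in 16 of 17 pairs, and these genes share part of their transcript ends as described above. Ifi205 with Ifi209 had 0.28, positive in 12 of 17 pairs. The shared ends of Ifi209 were with Ifi214. The part of shared reads in these r values was not tested.

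**Figure D3:**
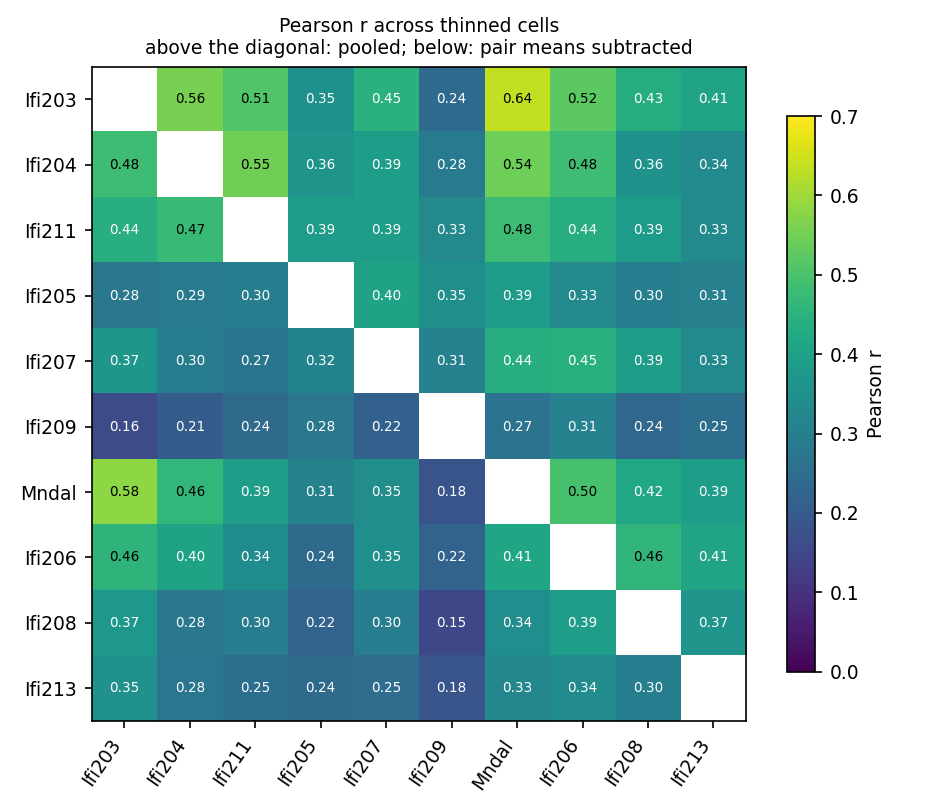
Pearson's r between 10 family genes over thinned cells of 1 library (colour and printed values), pooled above the diagonal and with each hashtag pair's mean subtracted below it. Below the diagonal Ifi203, Ifi204 and Ifi211 have the highest r among members, 0.44 to 0.48, and Ifi209 has the lowest values.

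Cells also differed in how many members they contained. Of the thinned cells, 9.27% had at least 1 UMI of all 6 members, 18.6% of 5, 28.6% of 4 and 32.2% of 3, and 0.904% had none. Of the less abundant members, none was read in 40.4% of cells (37.7 to 43.1) and all 3 in 9.27% (7.76 to 10.96). Cells with an Ifi205 UMI had an Ifi207 UMI in 70.9% of cases, against 36.3% of cells without Ifi205. They had an Ifi209 UMI in 40% of cases, against 14.3% of the rest. These shares pool all hashtag pairs, so they include the differences between pairs in all 3 genes. Between pairs, the share of thinned cells with none of the less abundant 3 ran from 13.6% to 84.2% with a median of 58.3%, and the share with all 3 from 0 to 19.1%. Counts of each member also varied from cell to cell by more than sampling alone gives, where variance equals the mean. All 6 had a variance at least 2 times the mean, from 2.45 for Ifi211 to 4.61 for Ifi203, against 10.3% of 10107 genes. This ratio includes the differences between pairs.

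**Figure D4:**
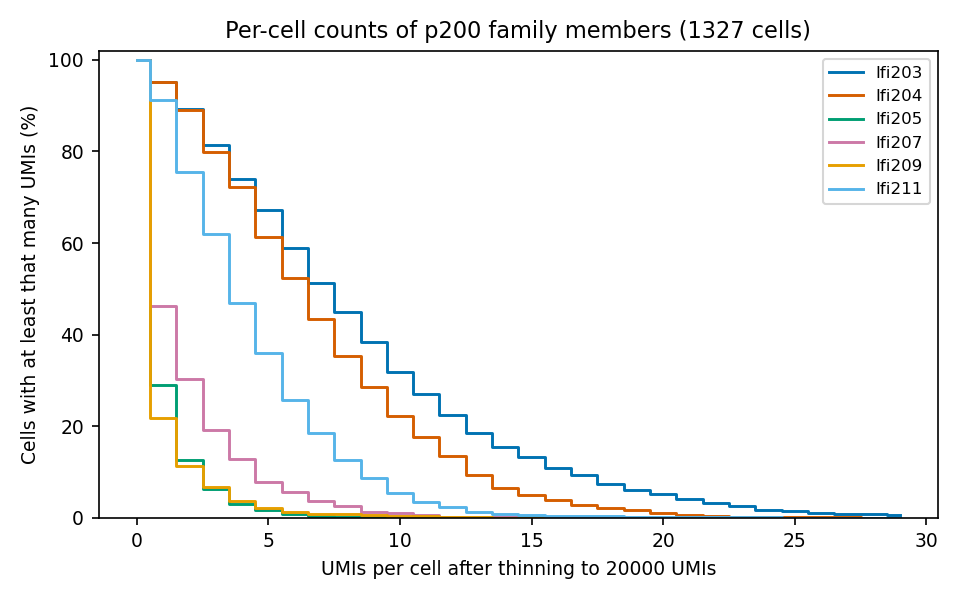
Share of the 1327 thinned cells (vertical axis, %) with at least a given number of UMIs of a member (horizontal axis, UMIs per cell at 20000 UMIs), 1 line per member. At 1 UMI the lines of Ifi203, Ifi204 and Ifi211 stand at 91.2% to 95.1% and those of Ifi207, Ifi205 and Ifi209 at 46.3%, 29.0% and 21.8%.

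Each member was then set against response lists that contain no p200 gene. The interferon-gamma list holds genes such as those for guanylate-binding proteins, and the type I list holds genes such as the IFIT and OAS genes. With the interferon-gamma score, all 6 members had r of at least 0.3 in the pooled cells, against 1.96% of the 10087 genes tested. After pair means were subtracted, 5 of 6 members remained at that size, against 1.4% of genes. Ifi203 had r of 0.59, the 7th highest of all genes tested, Ifi204 had 0.47, Ifi211 and Ifi207 each had 0.45, and Ifi205 had 0.40. Ifi209 was the exception at 0.19. With the type I score the counts were 6 pooled, against 1.75% of genes, and 5 after subtraction, against 1.27%. With cells thinned to 10000 UMIs the latter count was 4, as Ifi205 had 0.28, and with 30000 UMIs it was 6, as Ifi209 had 0.34. At 20000 UMIs Ifi203 had 0.66, Ifi204 had 0.59, Ifi211 had 0.57, Ifi207 had 0.46, Ifi205 had 0.39 and Ifi209 had 0.27. The median over the 6 members was 0.52 for the type I score and 0.45 for the interferon-gamma score. Over all genes the medians were -0.00402 and -0.000205.

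**Figure D5:**
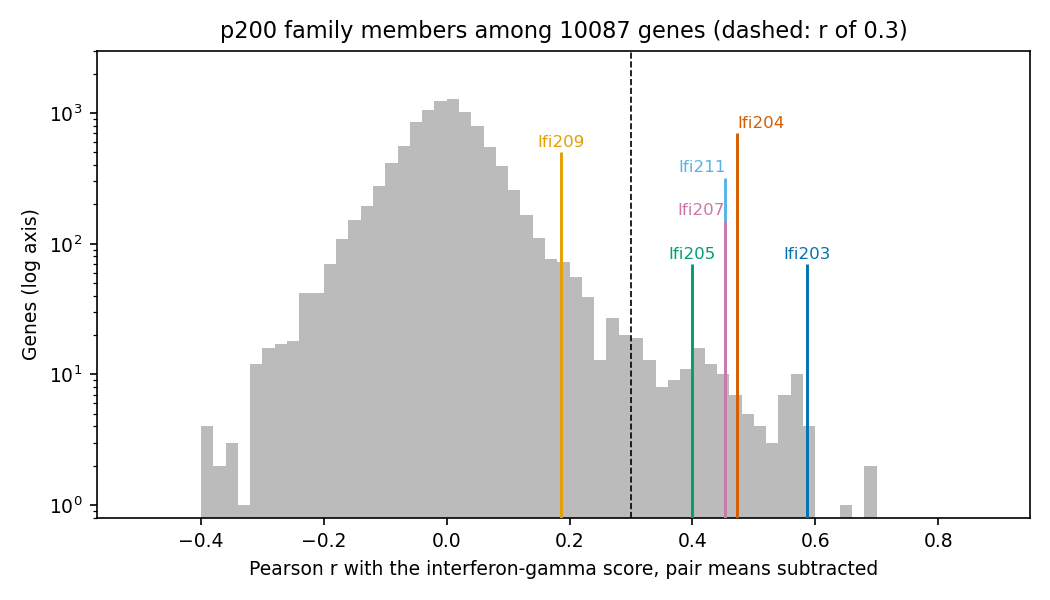
Pearson's r of every gene tested with the interferon-gamma score after pair means were subtracted (horizontal axis), as a histogram of gene counts (vertical log axis). Vertical lines mark the 6 members and the dashed line the size of 0.3; 5 members lie to its right and Ifi209, at 0.19, to its left.

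Members were also compared by the list with which they had the higher r. Within the 17 pairs with at least 20 thinned cells, r with the type I score was higher than r with the interferon-gamma score in 14 pairs for Ifi203, in 14 for Ifi204, in 13 for Ifi209 and in 13 for Ifi211. It was higher in 7 pairs for Ifi205 and in 7 for Ifi207, although over all cells after subtraction Ifi207 had the slightly higher r with the type I score. The 2 scores share cells, and whether members differ in these counts was not tested. Ifi205 had a higher r with the chemokine score, a list of 7 chemokine genes found, than with the interferon-gamma score in 12 of 17 pairs, while Ifi203 did so in 0. With the chemokine score 5 of 6 members reached 0.3 after subtraction, against 0.703% of genes. With the class I antigen presentation score 4 of 6 did, against 1.64%, and with the class II score 0 did, against 0.099%. No member reached 0.3 with the S phase score, against 3.88% of genes, with the G2/M score, against 2.76%, or with the hypoxia and glycolysis score, against 0.159%. Over these 3 lists the members' r after subtraction lay between -0.18 and 0.06.

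Genes whose cell-to-cell pattern was most like the family were looked for among the 10097 genes detected in 5% of thinned cells or more, family genes left out of the naming. Measured by r with the mean log value of the 6 members after pair means were subtracted, over 1286 cells, Ifit3 came first at 0.71. Isg15, the ubiquitin-like interferon-stimulated protein, followed at 0.66, and Usp18, which removes it from its targets, at 0.66. Cxcl10, a ligand of the T cell chemokine receptor CXCR3, had 0.62 and Trim30a 0.61. Ifit1 and Ifit3b each had 0.60. The immunity-related GTPases Ifi47 and Iigp1 had 0.58 and 0.56, and the guanylate-binding protein Gbp2 had 0.56. All 10 were positive in 17 of 17 pairs. In total 116 genes, or 1.15%, reached 0.3. Of the other family genes Mndal had 0.61 with the score and Ifi206 had 0.53. Each member, left out of its own score, had between 0.30 for Ifi209 and 0.56 for Ifi204.

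Taken member by member, the nearest genes outside the family differed. For Ifi203 they were Isg15 at 0.61, Ifit3 at 0.59 and Ifit1 at 0.54. Those of Ifi204 were Isg15 at 0.52, Ifit3 at 0.52 and Trim30a at 0.49, and those of Ifi211 were Isg15 at 0.53, Ifit3 at 0.51 and Usp18 at 0.49. Ifi207 was nearest to Ifit3 at 0.46, Ifit1 at 0.41 and Ifit3b at 0.41. For Ifi205 the first was Cxcl10 at 0.44, before Cmpk2 and Ifit2, each at 0.37. Cxcl10 was also first for Ifi209, at 0.29, before Slfn2 and AA467197, each at 0.28. After pair means were subtracted 0 genes reached 0.3 with Ifi209 and 84 genes, or 0.832%, with Ifi203. In the pooled cells 25 genes did with Ifi209 and 125 with Ifi203.

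Genes of DNA sensing and of inflammasomes, pathways in which several p200 proteins act, were read from a list of which 30 were found in the feature list. Of these, 20 were above 20 CPM, and Trex1, a cytosolic DNA exonuclease, had no UMI. The sensor gene Cgas stood at 23.1 CPM, Tmem173, which encodes the adaptor STING, at 51.6 CPM, the kinase gene Tbk1 at 22.2 CPM and Irf3 at 27.1 CPM. Their r with the family score after subtraction was 0.00348 for Cgas, 0.12 for Tmem173, 0.09 for Tbk1 and -0.02 for Irf3. Only Irf7, Zbp1 and Samhd1, each known as interferon-inducible, reached 0.3 of the 24 genes tested, at 0.49, 0.51 and 0.50, against the 1.15% of all genes given above. Their levels were 306, 312 and 151 CPM. Of the inflammasome genes, Casp1 was at 32.4 CPM with r of 0.22, Pycard at 2.73 CPM and Nlrp3 at 0.0293 CPM. Thus the family was read at 1011 CPM in cells where Aim2 was at 0.513 CPM and Pycard at 2.73 CPM.

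A few cells with macrophage transcripts had more of the family. In 3 cells with at least 10 UMIs of macrophage markers, Ifi204 was at 736 CPM (568 to 939) against 321 CPM in the other 1456 cells. In the same 3 cells Ifi207 was at 329 CPM (220.0 to 472) against 59.99 CPM, and Ifi209 at 238 CPM (147 to 364) against 27.4 CPM. Ifi203 differed least, at 566 CPM (420.4 to 747) against 379 CPM. The intervals cover counting within these 3 cells only, and hashtag pairs were not taken into account. All cells of HTO1 + HTO9, the pair highest in macrophage markers, had Ifi203 at 465 CPM and Ifi204 at 385 CPM. Ifi207 was at 104 CPM and Ifi209 at 45.7 CPM in that pair. The part of differences between pairs in these values was not tested. The 45 cells in no hashtag pair had a family sum of 376 CPM (353 to 401), below the lowest of the 18 pairs.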

How the data were processed

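The authors deposited unnormalized UMI counts of genes and hashtags per barcode, made with Cell Ranger. The version is 6.1.2 per the file headers and 2.1.1, with build GRCm38, per the submitters' processing notes, a conflict that was not resolved. The filter behind the barcode list is not given in the sources used here. Strand handling and the treatment of reads shared by paralogs are not given either.

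Hashtag cutoffs were the 0.99 quantile of a negative binomial fitted, per tag, to the lower of 2 clusters of log counts after its top 0.5% was removed. Cells with exactly 2 tags were assigned to that pair if it held 10 or more cells. Doublets were treated only by leaving out barcodes with 3 or more tags, so doublets within 1 pair are not seen. Levels are summed counts scaled to 1000000 gene UMIs, with exact Poisson intervals at 95%. Clopper-Pearson intervals were used for shares of cells, and the limit for a count of 0 was 3 counts. Cells were thinned to 20000 UMIs before correlations, scaled to 10000 and log-transformed, and a score is the mean of a list's log values. Sizes of 0.3 in r and 3-fold in span served as calls, with no p-value. The correlation and hashtag steps were tested on simulated data.

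Named genes were the 6 members, the other family genes of the feature list, the 10 genes most like the family score, the 3 most like each member, and the DNA sensing list. The members and lists were chosen with earlier results of these data known. Gene names are those of the feature list, coordinates come by gene ID from GENCODE M21 (GRCm38), and promoters from RefSeq. The result of the other motif searched is not reported here. Computation used Python 3.11.15 with numpy 2.4.6, scipy 1.17.1, pandas 2.3.3 and scikit-learn 1.9.0.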

Additional observations from a re-analysis of the deposited data

Results flagged for a closer look

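Barcodes outside the 1459 cells also carried the family. In the 199 barcodes with over 15% mitochondrial UMIs and at least 5000 gene UMIs, the 6 members summed to 1222.23 CPM (95% Poisson interval 1168 to 1278), against 1011 CPM in the cells and 1114 CPM in barcodes under 800 UMIs. The higher sum there came from Ifi203, at 636 CPM against 379 CPM in the cells, and Ifi204, at 382 against 322 CPM. The other 4 members were lower, with Ifi211 at 108 against 196 CPM, Ifi207 at 52.9 against 60.3, Ifi205 at 22.3 against 26.5 and Ifi209 at 20.4 against 27.7 CPM. For Ifi207, Ifi205 and Ifi209 the intervals overlapped those of the cells. The 198 barcodes with 3 or more hashtags had 1156.91 CPM (1138 to 1176), and each of the 6 members was higher there than in the cells. These sets were noted because no comparison of the report uses them and there are no control samples for them. The part of free RNA or of mixed droplets in these levels was not tested.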

How the results depend on the processing

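The family sum of 1011 CPM in the pool became 1001.77 CPM with at least 20000 gene UMIs per cell, 1032.74 CPM with 3-tag barcodes kept, 1406.35 CPM when scaled without mitochondrial and ribosomal protein genes, and 1035.49 CPM in cells of the 18 pairs only, an alternative added after the data were seen. The highest pair's family sum over the lowest, 2.96, became 2.28 over pairs of at least 50 cells and 2.63 without cells with a macrophage or dendritic UMI, also added later. Genes with r of at least 0.3 with the family score numbered 116, and 62 with cells thinned to 10000 UMIs, where 8 of the 10 most alike genes were shared. The other 13 alternatives of these summary values stayed within their counting interval or within 1.5-fold, and no value changed sign. Members at 0.3 with the type I score numbered 4 to 6 over the thinning depths. No paired analysis was possible because no sample has a replicate and no hashtag carries a condition. Depth limits Ifi205, Ifi207 and Ifi209 most, which rest on 2 or 3 UMIs in the smallest pair.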

Other observations

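The levels of Ifi205 and Ifi209 left a wide gap among the 18 hashtag pairs, seen after the values were known, and no pair has a condition. For Ifi205 the gap lay between 13.5 and 35.6 CPM, a step of 2.63-fold. For Ifi209 it lay between 12.6 and 26.7 CPM, a step of 2.11-fold, and the same 6 pairs lay above it. The widest step of the family gene Ifi213, between 24.1 and 37.6 CPM, had the same 6 pairs above it. It was only 1.56-fold, and the intervals of the bordering pairs overlapped. The same 6 pairs also stood above the other 12 for Ifi207 (64.2 CPM or more against 38.1 or less), Ifi208 (39.6 against 22.7), Ifi206 (91.7 against 73.3) and the family sum (1059 against 927), and for the interferon-gamma list (3883 to 5283 CPM against 733 to 1577 CPM). They did so too for Ifi203 (394 CPM or more against 358 or less), Ifi211 (195 against 181) and Mndal (281 against 244). For each of these genes, however, the counting intervals of the bordering pairs, HTO6 + HTO7 and HTO3 + HTO7, overlapped. For Ifi211 they were 184 to 206 and 155 to 210 CPM, so counting error does not set the groups apart there. The type I list also set them apart, at 10016 CPM or more against 9407 or less. Of the 6 members only Ifi204 did not. Its lowest value among the 6 pairs was 338 CPM and its highest among the 12 was 348 CPM. These were also the 6 pairs with the most cells, 95 to 223 against 20 to 85 in the other 12, although equal numbers of cells per tumor were combined before sorting. The part of cell number or of any other difference between pairs in the gap was not tested. HTO2 + HTO8 (223 cells) had 35.6 CPM of Ifi205 and 38.0 CPM of Ifi209, HTO6 + HTO7 (140 cells) had 41.1 CPM of Ifi205 and 26.7 CPM of Ifi209, and HTO7 + HTO10 (128 cells) had 43.3 CPM of Ifi205 and 54.6 CPM of Ifi209. HTO3 + HTO9 (124 cells) had 49.8 CPM of Ifi205 and 57.7 CPM of Ifi209, HTO8 + HTO10 (111 cells) had 44.8 CPM of Ifi205 and 44.8 CPM of Ifi209, and HTO1 + HTO9 (95 cells) had 36.7 CPM of Ifi205 and 45.7 CPM of Ifi209. HTO6 + HTO9 (85 cells) had 6.76 CPM of Ifi205 and 12.5 CPM of Ifi209, HTO3 + HTO5 (84 cells) had 5.99 CPM of Ifi205 and 2.49 CPM of Ifi209, and HTO6 + HTO10 (78 cells) had 9.66 CPM of Ifi205 and 5.68 CPM of Ifi209. HTO5 + HTO7 (77 cells) had 10.3 CPM of Ifi205 and 9.39 CPM of Ifi209, HTO1 + HTO2 (52 cells) had 7.70 CPM of Ifi205 and 12.6 CPM of Ifi209, and HTO4 + HTO9 (49 cells) had 12.4 CPM of Ifi205 and 10.7 CPM of Ifi209. HTO4 + HTO8 (38 cells) had 4.45 CPM of Ifi205 and 6.99 CPM of Ifi209, HTO2 + HTO5 (36 cells) had 8.11 CPM of Ifi205 and 6.49 CPM of Ifi209, and HTO3 + HTO6 (28 cells) had 3.90 CPM of Ifi205 and 5.46 CPM of Ifi209. HTO2 + HTO4 (25 cells) had 13.5 CPM of Ifi205 and 3.61 CPM of Ifi209, HTO3 + HTO7 (21 cells) had 3.16 CPM of Ifi205 and 12.6 CPM of Ifi209, and HTO1 + HTO3 (20 cells) had 3.12 CPM of Ifi205 and 2.08 CPM of Ifi209.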
